A study of Mus musculus with 24 samples.

Results

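Of the 55487 gene IDs in the count tables, 36 response genes of the LIF, FGF-ERK and Wnt signalling pathways were followed in mouse embryonic stem cells in which the transcription factor DUX could be switched on. The 36 were set as a list of gene symbols, and all 36 were found by their Ensembl ID. By role they are 8 feedback inhibitors of ERK, 9 transcription factors induced by ERK, 4 other ERK targets, 4 genes of the LIF ligand and its signalling chain, 5 LIF targets and 6 Wnt targets. The study holds 24 RNA-seq libraries of KH2 cells, a mouse embryonic stem cell line, all with a DUX transgene under a promoter that responds to doxycycline (DOX). The 6 lines were each sampled without DOX and after 16 h of DOX, with 2 libraries per group. A first set of 8 libraries (the plain set) holds WT cells and cells labelled DUXBL-KO, a knockout of the DUX-related homeobox gene Duxbl. A second set of 16 libraries, whose titles carry the construct name pLV2, holds 2 WT lines (line 1 and line 2) and lines labelled TRIM24-KO and TRIM33-KO, after 2 chromatin-binding TRIM proteins. The labels give neither the meaning of pLV2, nor the number of clones per line, nor the WT line each knockout came from. All cells were grown with serum and added LIF, on gelatin or on a layer of growth-arrested fibroblasts. No group received DOX without carrying the transgene, so DUX and DOX itself cannot be told apart, and the labels do not say that replicates came from separate cultures. The p-values therefore measure the spread between these libraries, which may be technical.

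LIF binds a receptor made of LIFR and gp130, the product of Il6st, and activates the transcription factor STAT3 through JAK kinases, and STAT3 supports self-renewal of mouse embryonic stem cells. FGF4, made by these cells, signals through FGF receptors, RAS and ERK, primes the cells to leave the naive state and induces both transcription factors (Egr1, Fos, Etv4, Etv5) and its own inhibitors (Sprouty, Spred and DUSP proteins). Wnt ligands stabilise beta-catenin, which acts with TCF and LEF factors on targets such as Axin2, a negative regulator of the pathway.

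Promoter sequence was matched by symbol for 26 of the 36 genes in a RefSeq table of GRCm38.p6. Egr1, Myc, Spry4, Ccnd1, Etv4, Socs2, Phlda1, Dusp4, Fosl1 and Ier2 had no entry. The 250 bases before each annotated start were searched on both strands for 7 motifs. Of all 32851 promoters, 6.75% hold an AP-1 motif (TGANTCA), 7.49% the related CRE-like letters TGACNTCA, 12.03% an ETS motif (CCGGAA), 7.02% a STAT motif (TTCNNNGAA), 13.8% a TCF/LEF motif (CTTTGA), 1.47% a CArG box and 0.0304% a DUX motif. Among the 26 genes the AP-1 letters are in the promoter of Lif, the CRE-like letters in that of Jun, the ETS letters in Il6st and Tcf7, the STAT letters in Socs3, and the TCF/LEF letters in Dkk1, Lef1, Mycn and Sp5. CArG boxes, the letters that serum response factor is known to bind, are in Dusp5, Lef1 and Tcf7, and none of the 26 holds the DUX motif. The CRE-like letters were added to the search after the Jun sequence had been read. The promoters of 4 genes are printed because their genes recur below: Jun and Dusp5 had positive DOX changes in all 6 lines, Il6st was lower with DOX in all 6, and Socs3 responded unequally in the 2 WT pLV2 lines. Capitals mark the motif matches, and bases within an annotated exon of the gene are left out.
Jun, chr4:95052223-95052472, minus strand, CRE-like: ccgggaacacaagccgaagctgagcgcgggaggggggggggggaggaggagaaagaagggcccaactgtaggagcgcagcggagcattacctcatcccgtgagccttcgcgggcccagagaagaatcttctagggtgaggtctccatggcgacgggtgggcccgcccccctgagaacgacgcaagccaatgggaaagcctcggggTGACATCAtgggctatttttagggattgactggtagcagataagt
Dusp5, chr19:53528895-53529108, plus strand, 2 adjoining CArG boxes: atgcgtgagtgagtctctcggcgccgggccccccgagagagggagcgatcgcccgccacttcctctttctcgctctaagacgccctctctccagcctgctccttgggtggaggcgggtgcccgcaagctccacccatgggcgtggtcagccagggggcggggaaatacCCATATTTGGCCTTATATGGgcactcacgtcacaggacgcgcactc
Il6st, chr13:112463820-112464069, plus strand, 2 ETS motifs, the first on the opposite strand: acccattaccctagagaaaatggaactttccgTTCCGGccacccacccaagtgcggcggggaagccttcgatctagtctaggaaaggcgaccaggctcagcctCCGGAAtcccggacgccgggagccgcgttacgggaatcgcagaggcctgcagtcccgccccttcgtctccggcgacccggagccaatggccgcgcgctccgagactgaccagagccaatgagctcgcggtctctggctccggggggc
Socs3, chr11:117969452-117969616, minus strand, STAT: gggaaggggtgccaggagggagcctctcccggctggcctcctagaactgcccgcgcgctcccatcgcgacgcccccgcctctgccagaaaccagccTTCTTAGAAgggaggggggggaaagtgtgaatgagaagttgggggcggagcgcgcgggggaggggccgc
A match describes letters only. The Socs3 window lies inside the longer gene span that GENCODE gives. So do the matches of Lef1, Tcf7 and Mycn and 1 match of Dkk1, so these lie within the GENCODE genes and not before them. The first exon of Dusp5 is overlapped by an antisense transcript whose reads could be counted with it if the counting ignored strand.

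Gene counts per library ran from 11784696 to 19136869, and 1 abundant feature, CT010467.1, took 0.0871% to 30.4% of them, with the highest shares in the second DOX library labelled TRIM24-KO (30.4%) and the second DOX library of TRIM33-KO (12.9%). The chi-square of counts between replicates was 285 and 99.5 per degree of freedom in those 2 groups and 3.04 to 23.2 in the others. With that feature left out 13 members were called for DOX under the TRIM24-KO label and 27 in TRIM33-KO, against 11 and 27 with it, and without those libraries 7 and 23. The labels were followed by title, since the treatment tags of 8 pLV2 libraries say the opposite. Dux (Duxf3 in the annotation) had 0 to 2 counts in every library titled without DOX and 20 to 110 with DOX. Trim33 was lowered in TRIM33-KO (16.9 to 21.4 CPM, gene counts scaled to a common library size, against 85.2 to 140.0 in the WT pLV2 libraries). Trim24 was not lowered in the libraries labelled TRIM24-KO (120.3 to 137 CPM, against 94.5 to 199 in WT pLV2) and Duxbl1 was not lowered in those labelled DUXBL-KO with DOX (4.97 and 11.1 CPM, against 3.23 and 8.34 in WT), so both are called by their labels here. Pluripotency genes such as Pou5f1 (4613 to 15594 counts), Nanog, Sox2 and Esrrb were abundant in all 24 libraries, but of 12 such markers 6 fell and 1 rose with DOX in line 2 and in TRIM33-KO, 5 and 0 did in the libraries labelled TRIM24-KO, and 2 and 2 in line 1 (Sox2 -0.53 in line 2 and -0.71 in TRIM33-KO, Esrrb -0.34 and -0.40). Defining fibroblast genes summed to 0.961 to 10.6 CPM over 8 genes, with Lum, Postn, Prrx1, Twist2, Col3a1 and Dcn at 0 to 3 counts in every library. The 8 fixed marker genes of the 2-cell-like state (Zscan4c, Zfp352 and others) summed to at most 4.25 CPM without DOX. With DOX that sum was 526 to 1307 CPM in WT, 990 to 1545 in the libraries labelled DUXBL-KO, 954 to 1182 in line 1, 2810 to 3920 in line 2, 953 to 1451 in the libraries labelled TRIM24-KO and 4912 to 5468 in TRIM33-KO. These sums were highest in TRIM33-KO and line 2, which also had the most member calls below. Elsewhere they did not follow the calls: 0 members passed in the libraries labelled DUXBL-KO and 17 in line 1. The 8 defining fibroblast genes rose in each pLV2 line (5.17 to 5.33 CPM without and 9.60 to 10.6 with DOX in TRIM33-KO). In TRIM33-KO a longer list of 22 fibroblast genes fell (1938 and 1982 to 1707 and 1775 CPM). So did 8 trophectoderm markers (89.8 and 92.8 to 56.4 and 66.5 CPM). Under the TRIM24-KO label the libraries with and without DOX overlapped for both of these lists. The part of these markers and of the stem cell markers in the DOX results was not tested.

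With DOX, more of the members were called lower than higher in each of the 4 pLV2 lines. Counted by role this did not hold for the Wnt targets of line 1 (1 higher and 1 lower), nor, under the TRIM24-KO label, for the Wnt targets (1 and 0), the ERK-induced transcription factors (1 and 1), the LIF targets (1 and 1) and the other ERK targets (0 and 0). The LIF receptor genes Il6st and Lifr, Stat3, Spred1 and Spred2 fell in all 4, and Jun and Axin2 rose in all 4. In TRIM33-KO 22 of 35 tested members fell and 5 rose, in WT pLV2 line 2 21 fell and 4 rose, in line 1 15 fell and 2 rose, and in the libraries labelled TRIM24-KO 7 fell and 4 rose (edgeR quasi-likelihood test, Benjamini-Hochberg adjusted p under 0.05 over all genes). Of all 18079 genes tested 36.6%, 26.8%, 16.3% and 16.4% passed in that order of lines. The shares called lower were 20.1%, 14.0%, 6.25% and 4.94% of all genes, and those called higher 16.5%, 12.7%, 10.0% and 11.5%. Median log2 fold changes of the members were -0.52 in TRIM33-KO, -0.37 in line 2, -0.32 in line 1 and -0.06 in the libraries labelled TRIM24-KO, beside -0.09, -0.07, -0.03 and 0.00 over all genes. In the plain set, in the fit without a replicate term, 0 of 34 tested members passed in WT, where 2.93% of 18060 genes did (2.82% higher and 0.105% lower), and 0 of 34 in the libraries labelled DUXBL-KO, where 4.91% did (4.5% higher and 0.404% lower). At an unadjusted p under 0.05, 4 members passed in WT and 2 in the libraries labelled DUXBL-KO, and DESeq2 called 0 in both. Without a filter on low counts 3 members were called in the libraries labelled DUXBL-KO (Spry2 0.48, Lef1 -1.13 and Junb -0.70). With the replicate number as a block 3 were called there too, all lower (Junb -0.72, Lif -0.96 and Spred1 -0.35, edgeR adjusted p = 0.020, 0.035 and 0.028), and 0 in WT. In the fit without a replicate term the plain set was the less precise. Its spread between replicates corresponds to a common coefficient of variation of 17.8%, against 8.55% in the pLV2 set. Replicate differences in the plain set correlated between groups (0.332 to 0.768), so part of that spread went with the replicate number.

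**Figure D1:**
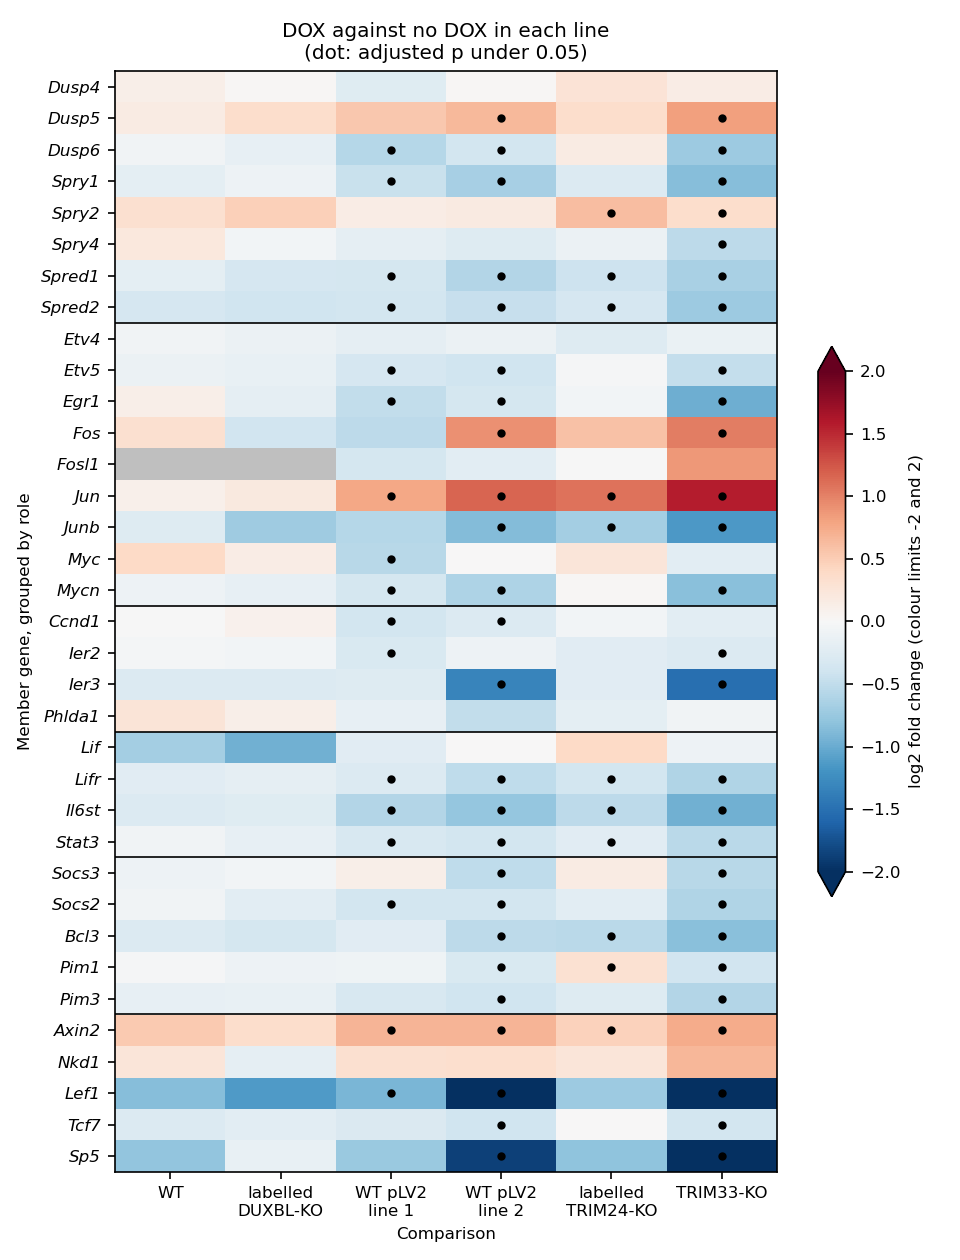
Heat map of the log2 fold change with DOX against without DOX for 35 members (vertical axis, grouped by role) in the 6 lines (horizontal axis). Blue is lower and red higher with DOX, grey was not tested, the colour scale ends at -2 and 2, and a dot marks an adjusted p under 0.05. The 4 pLV2 columns hold all the dots, most of them on blue cells, and Dusp5, Spry2, Jun and Axin2 are red throughout.

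The counts moved with single libraries and with scaling. In line 1 the 17 calls became 6 without the first and 7 without the second library lacking DOX, and 11 and 6 without the first and second DOX library. In line 2 the 25 became 14 without the first DOX library, and in the libraries labelled TRIM24-KO the 11 became 7 without the first library lacking DOX and 7 without the second DOX library. With each library left out in turn, all calls held for Il6st, Spred2 and Axin2 in line 1, and for 5 of 11 in the libraries labelled TRIM24-KO (Il6st, Lifr, Spred2, Jun and Spry2). In line 2 they held for 14 of 25 (Il6st, Lifr, Stat3, Socs3, Pim1, Spred1, Spred2, Spry1, Etv5, Junb, Mycn, Ier3, Axin2 and Lef1), and in TRIM33-KO for all 27 but Dusp5, Fos, Ier2, Pim1, Tcf7 and Sp5. No called DOX change reversed under any alternative. With DESeq2's size factors in edgeR the all-gene calls of line 2 turned from 2304 higher and 2534 lower to 2619 and 1774, and those of TRIM33-KO from 2978 and 3633 to 3499 and 2676. The members then stood at 4 higher and 17 lower in line 2, and 6 and 19 in TRIM33-KO. With repeat counts in the library sizes, the all-gene split was 2563 higher and 4798 lower in TRIM33-KO and 1822 and 1343 in the libraries labelled TRIM24-KO.

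The 2 LIF receptor chains and Stat3 fell in all 4 pLV2 lines. Il6st (chr13:112464070-112510086, plus strand), which encodes gp130, read 115 and 114 CPM without DOX and 82.7 and 68.8 with DOX in line 1. Its levels were 94.7 and 115 against 55.9 and 67.3 CPM in line 2, and 166 and 159 against 112 and 114 in the libraries labelled TRIM24-KO. In TRIM33-KO it went from 113 and 109.8 CPM to 55.0 and 60.2. The DOX libraries lay below those without DOX in each line with no overlap. The log2 changes were -0.59 ± 0.10 (SE) in line 1, -0.77 ± 0.10 in line 2, -0.52 ± 0.10 in the libraries labelled TRIM24-KO and -0.95 ± 0.10 in TRIM33-KO, the last a 1.94-fold lower level (edgeR adjusted p = 0.00043, 2.0e-05, 0.0010 and 1.4e-06). These 4 calls held under each of the 11 alternatives. In the plain set Il6st read 145 and 138 against 114 and 119 CPM in WT, and 124 and 104 against 98.5 and 93.5 in the libraries labelled DUXBL-KO. Those levels do not overlap either, but the changes (-0.27 ± 0.11 and -0.25 ± 0.11) did not pass (adjusted p = 0.40 and 0.36, edgeR).

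Lifr (chr15:7090614-7197489, plus strand), the LIF-binding chain, read 148 and 160.4 CPM against 131 and 124 in line 1, and 187 and 175 against 124 and 130.1 in line 2. It read 130.0 and 139 against 100.3 and 109 CPM under the TRIM24-KO label, and 165 and 159 against 99.7 and 114 in TRIM33-KO. The DOX libraries were again the lower pair in each line. The log2 changes were -0.27 ± 0.07, -0.51 ± 0.07, -0.36 ± 0.08 and -0.60 ± 0.08 (edgeR adjusted p = 0.019, 5.9e-05, 0.0029 and 8.8e-06). The line 1 call was lost without either library lacking DOX (adjusted p = 0.060 and 0.31) and without the second DOX library (0.17). In WT the levels were 216 and 222 against 178 and 197 CPM, and in the libraries labelled DUXBL-KO 185 and 197 against 159 and 177, with no overlap and no call.

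Il6st, Lifr and the ERK inhibitor Spred2 were the only 3 of 34 members tested in both sets whose DOX libraries lay below those without DOX in all 6 lines. Of 17241 genes tested in both sets 3.10% did so. None of the 34 lay above in all 6 lines, which 8.17% of genes did. In bulk RNA, fewer cells that express a gene and less RNA per cell cannot be told apart.

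Stat3, the transcription factor that LIF activates, read 81.3 and 79.8 CPM against 67.4 and 61.7 in line 1 and 133 and 131 against 100.4 and 104 in line 2. It read 75.5 and 74.4 against 64.4 and 64.3 CPM in the libraries labelled TRIM24-KO, and 136 and 130.5 against 87.0 and 95.6 in TRIM33-KO. No pair overlapped. The log2 changes ran from -0.22 ± 0.06 in the libraries labelled TRIM24-KO, where leaving out the first library lacking DOX or either DOX library ended the call, to -0.55 ± 0.06 in TRIM33-KO (edgeR adjusted p = 0.027 and 2.5e-06). In line 1 the adjusted p of Stat3 rose from 0.0018 to 0.059 without the first library lacking DOX and to 0.057 without the second DOX library. Lif itself, the ligand that the medium also supplies, was read at 2.31 to 6.60 CPM over all libraries. It passed in no line in the fit without a replicate term. Its largest change was in the libraries labelled DUXBL-KO, from 5.33 and 5.40 to 2.89 and 2.62 CPM (log2 -0.96 ± 0.27, edgeR adjusted p = 0.13), the smallest p of any member there. With the replicate number as a block that change was called (-0.96, edgeR adjusted p = 0.035).

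**Figure D2:**
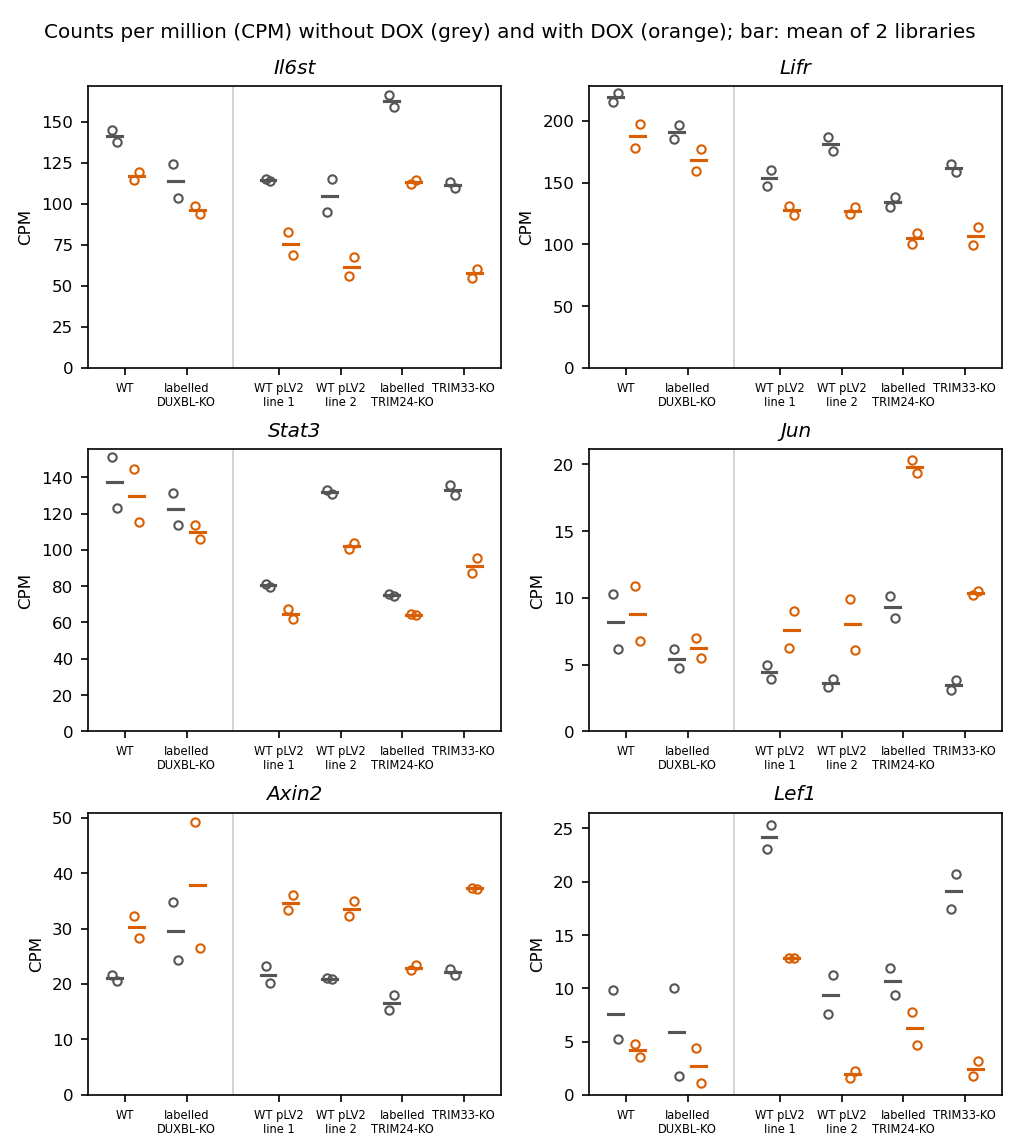
CPM of 6 members (1 panel each, vertical axis from 0) in the 6 lines (horizontal axis). Grey points are libraries without DOX, orange points libraries with DOX, and bars are means of 2 libraries. Il6st and Lifr have the orange pair below the grey pair in every line, and Axin2 and Jun have it above in the 4 pLV2 lines, right of the vertical line.

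The calls of the 5 LIF targets varied with the line. All 5 were called lower in line 2 and in TRIM33-KO, 1 (Socs2) in line 1, and in the libraries labelled TRIM24-KO Bcl3 fell while Pim1 rose. Socs3, the feedback inhibitor of LIF receptor signalling whose promoter is printed above, read 147 and 145 CPM against 99.1 and 106 in line 2 and 162 and 148 against 109 and 102 in TRIM33-KO. In line 1 it was 116 and 104 CPM without and 119 and 118 with DOX, and in the libraries labelled TRIM24-KO 119.7 and 119 against 136 and 130.3. The first pair of lines thus has lower levels with DOX and the second pair higher ones, and only the first 2 changes passed (-0.51 ± 0.07 and -0.55 ± 0.07, edgeR adjusted p = 2.3e-05 and 7.2e-06). Socs2, a second inhibitor of cytokine signalling, read 37.9 and 36.7 CPM against 30.6 and 27.0 in line 1, 35.5 and 33.5 against 24.7 and 28.6 in line 2, and 46.6 and 47.5 against 28.1 and 34.4 in TRIM33-KO (log2 -0.37, -0.37 and -0.60). The Socs2 call was lost in 8 of 11 alternatives in line 1 (adjusted p up to 0.32) and in 6 of 11 in line 2 (up to 0.24), including without either line 1 library lacking DOX or either with DOX, and without either line 2 library lacking DOX or the first with DOX. Bcl3, a STAT3 target and partner of NF-kappaB p50, read 32.8 and 26.2 against 18.7 and 22.7 CPM in line 2, 53.9 and 45.5 against 37.6 and 30.0 in the libraries labelled TRIM24-KO, and 33.5 and 31.6 against 19.0 and 17.5 in TRIM33-KO (-0.52, -0.55 and -0.83). The survival kinase gene Pim1 was the only member called in both directions. It rose from 111 and 104 to 133 and 133 CPM in the libraries labelled TRIM24-KO (0.30 ± 0.07, edgeR adjusted p = 0.0044), and fell in line 2, from 95.8 and 98.2 to 80.7 and 76.7 (-0.30 ± 0.07), and in TRIM33-KO, from 98.2 and 89.1 to 76.7 and 67.2 (-0.38 ± 0.07). Its relative Pim3 fell in the last 2 (-0.39 and -0.58). In line 2 the calls of Bcl3 and Pim3 were each lost in 3 of 11 alternatives (adjusted p up to 0.17 and 0.16), among them without the first library lacking DOX and without the first with DOX.

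Feedback inhibitors of ERK split into a falling and a rising part. Spred1 and Spred2, which block RAS from activating RAF, fell in all 4 pLV2 lines. Spred2 read 92.8 and 91.2 CPM against 75.0 and 67.9 in line 1, 100.1 and 96.7 against 67.7 and 74.7 in line 2, 113 and 116 against 92.4 and 89.3 in the libraries labelled TRIM24-KO and 100.4 and 104 against 60.7 and 63.1 in TRIM33-KO. Its DOX levels lay below in each, also in WT (134 and 106 against 100.1 and 90.2) and in the libraries labelled DUXBL-KO (95.8 and 102 against 73.1 and 77.6), and the pLV2 changes ran from -0.33 ± 0.07 to -0.73 ± 0.07 (edgeR adjusted p from 0.0016 to 1.8e-07), called under each of the 11 alternatives. Spred1 read 67.2 and 67.1 against 54.0 and 51.8 CPM in line 1, 71.5 and 66.7 against 43.8 and 48.4 in line 2, 159 and 137 against 118 and 105 under the TRIM24-KO label and 69.0 and 60.1 against 40.6 and 42.0 in TRIM33-KO. Each DOX pair was the lower one, and the changes were -0.34, -0.59, -0.41 and -0.64. In line 1 its adjusted p of 0.013 rose to 0.13 without either library lacking DOX and to 0.11 without the second DOX library, and in the libraries labelled TRIM24-KO it rose from 0.0024 to 0.055 without the first library lacking DOX and to 0.057 without the second with DOX.

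The ERK phosphatase gene Dusp6, a common readout of ERK activity, fell in 3 of the 4 pLV2 lines. It read 44.3 and 42.4 CPM against 31.3 and 26.8 in line 1, 23.2 and 24.4 against 18.8 and 18.05 in line 2, and 31.0 and 28.5 against 18.6 and 17.3 in TRIM33-KO. In the libraries labelled TRIM24-KO it read 152 and 122 against 170.1 and 138 CPM, which overlap. The log2 changes were -0.58 ± 0.12, -0.37 ± 0.13 and -0.72 ± 0.13 in the first 3 (edgeR adjusted p = 0.0024, 0.044 and 0.00037) and 0.17 ± 0.10 in the last (0.31). The line 2 call was lost in 8 of 11 alternatives, among them without any 1 of its 4 libraries (adjusted p up to 0.21), and the line 1 call without the second DOX library (0.055). Sprouty genes, which act upstream of RAS, did not move as one. Spry1 fell in the same 3 lines as Dusp6, from 17.9 and 17.95 to 13.5 and 12.7 CPM, from 10.8 and 14.0 to 7.49 and 7.98, and from 13.5 and 11.0 to 7.02 and 6.504 (-0.45, -0.67 and -0.85), with the line 1 call lost in 6 of 11 alternatives. Spry4 fell in TRIM33-KO alone among the calls (-0.52 ± 0.10, from 119 and 117 to 86.7 and 77.5 CPM). Spry2 rose in the libraries labelled TRIM24-KO, from 410.3 and 362 to 648 and 531 CPM (0.61 ± 0.08, edgeR adjusted p = 2.4e-05), and in TRIM33-KO, from 71.8 and 72.5 to 92.2 and 91.5 (0.35 ± 0.09, 0.0042). Dusp5, a nuclear ERK phosphatase, rose in line 2, from 6.98 and 4.66 to 9.78 and 8.73 CPM, and in TRIM33-KO, from 6.01 and 8.07 to 12.4 and 12.6 (0.65 ± 0.21 and 0.83 ± 0.20). The first of these calls was lost in 4 of 11 alternatives and the second in 1. Dusp4 was called in no line.

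Among the ERK-induced transcription factors Jun rose while its relative Junb fell. Jun (chr4:95049034-95052222, minus strand), an AP-1 subunit, read 5.01 and 3.93 CPM against 6.24 and 9.004 in line 1 and 3.30 and 3.92 against 9.93 and 6.12 in line 2. In the libraries labelled TRIM24-KO it read 10.2 and 8.47 against 20.3 and 19.3 CPM, and in TRIM33-KO 3.13 and 3.84 against 10.2 and 10.5. The DOX libraries were the higher pair in all 4, with log2 changes of 0.77 ± 0.23, 1.16 ± 0.23, 1.09 ± 0.20 and 1.57 ± 0.23 (edgeR adjusted p = 0.032, 0.0014, 0.00074 and 5.0e-05), the last a 2.96-fold rise. In line 1 the call ended without the second library lacking DOX (adjusted p = 0.22) or the second DOX library (0.35), and in line 2 it ended without the first DOX library (0.0501). In WT, Jun read 10.3 and 6.13 against 10.9 and 6.78 CPM, and in the libraries labelled DUXBL-KO 6.14 and 4.76 against 7.03 and 5.46, both overlapping. Junb, another AP-1 subunit, read 16.8 and 15.2 against 8.33 and 9.17 CPM in line 2, 47.5 and 38.2 against 32.9 and 19.4 in the libraries labelled TRIM24-KO, and 20.8 and 19.8 against 8.36 and 10.1 in TRIM33-KO (-0.87 ± 0.20, -0.68 ± 0.17 and -1.15 ± 0.20). Under the TRIM24-KO label the Junb change was -1.16 without the first DOX library. The call ended without the second DOX library (-0.38, edgeR adjusted p = 0.12), without the first library lacking DOX (-0.52, 0.11) and with only the compared groups fitted (0.061). Fos, the AP-1 partner of Jun, was low (22 to 63 counts) and was called higher in line 2 and TRIM33-KO (0.92 ± 0.31 and 1.03 ± 0.29). Its line 2 call ended without the first library lacking DOX (0.65, edgeR adjusted p = 0.24) or the first DOX library (0.75, 0.22), with only the compared groups fitted (0.060) and with DESeq2 (adjusted p = 0.053). Its TRIM33-KO call ended without the first library lacking DOX (0.064).

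The other called factors fell. Egr1, a zinc finger factor among the first genes that ERK induces, read 24.7 and 23.4 CPM against 18.1 and 16.0 in line 1, 32.1 and 33.6 against 22.2 and 29.0 in line 2, and 51.1 and 54.5 against 24.8 and 28.7 in TRIM33-KO (-0.50, -0.36 and -0.98). Mycn, the MYC family member prominent in embryonic stem cells, read 112 and 109 against 83.7 and 89.1 CPM, 144 and 142 against 88.2 and 99.0, and 121 and 129 against 66.0 and 73.5 in the same 3 lines (-0.35, -0.61 and -0.84). Etv5, an ETS factor of the FGF response, read 269.7 and 281 against 211 and 226 CPM, 213 and 223 against 153 and 177, and 276 and 293 against 190.3 and 217 (-0.34, -0.41 and -0.48). The line 2 call of Egr1 was lost in 7 of 11 alternatives (adjusted p up to 0.42). None of these 3 passed in the libraries labelled TRIM24-KO, where Egr1 read 20.4 and 16.8 against 18.6 and 17.0, Mycn 55.4 and 57.4 against 61.9 and 52.0 and Etv5 306 and 320.0 against 316 and 301 CPM. Myc fell in line 1 alone among the calls (-0.55 ± 0.14), and Etv4 in none. Of the 4 other ERK targets, Ier3, an immediate early gene linked to survival, fell from 11.8 and 14.4 to 5.19 and 5.29 CPM in line 2 and from 9.64 and 8.16 to 3.11 and 3.14 in TRIM33-KO (-1.31 ± 0.17 and -1.51 ± 0.21, edgeR adjusted p = 2.2e-05 and 2.4e-05). Ccnd1 (cyclin D1) fell in lines 1 and 2, Ier2 in line 1 and TRIM33-KO, by 0.37 or less, and Phlda1 in none. The calls of Ccnd1 in line 2 and of Ier2 in TRIM33-KO were each lost in 7 of 11 alternatives.

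Wnt targets moved in opposite directions. Axin2 (chr11:108920349-108950783, plus strand) read 23.2 and 20.2 CPM against 33.3 and 36.02 in line 1, 21.1 and 20.8 against 32.2 and 34.9 in line 2, 15.3 and 17.9 against 22.5 and 23.4 in the libraries labelled TRIM24-KO, and 22.7 and 21.6 against 37.2 and 37.2 in TRIM33-KO. All DOX pairs lay above, with log2 changes of 0.68 ± 0.10, 0.68 ± 0.10, 0.46 ± 0.11 and 0.75 ± 0.10 (edgeR adjusted p = 0.00011, 6.4e-05, 0.0062 and 1.6e-05). The third of these had an adjusted p of 0.087 without the first library lacking DOX. In WT it read 21.6 and 20.5 against 32.2 and 28.2 CPM (0.52 ± 0.30, adjusted p = 0.65), without overlap, and in the libraries labelled DUXBL-KO 34.8 and 24.3 against 49.2 and 26.4, with overlap. Lef1 (chr3:131110471-131224356, plus strand), a transcription factor that is itself a Wnt target, read 23.1 and 25.3 against 12.9 and 12.9 CPM in line 1, 7.56 and 11.3 against 1.60 and 2.24 in line 2, and 17.5 and 20.7 against 1.78 and 3.14 in TRIM33-KO. In each of these lines Lef1 had the most negative change of the called members, on 20 to 30 counts per DOX library in line 2 and TRIM33-KO: -0.91 ± 0.20, -2.27 ± 0.29 and -2.99 ± 0.27, or 4.83-fold in line 2 and 7.93-fold in TRIM33-KO (edgeR adjusted p = 0.0039, 1.2e-05 and 1.5e-07). Only the call in line 1 depended on 1 library (adjusted p = 0.061 without the second lacking DOX). In the libraries labelled TRIM24-KO Lef1 read 11.95 and 9.40 against 7.78 and 4.70 CPM (-0.72 ± 0.24, adjusted p = 0.051). Tcf7, the related TCF1 factor, fell in line 2 (-0.40 ± 0.11) and TRIM33-KO (-0.36 ± 0.11). The line 2 call was lost in 3 of 11 alternatives, with changes from -0.57 to -0.21, and the TRIM33-KO call in 6 of 11. Sp5, a repressor induced by Wnt, was called lower in the same 2 lines on few counts, 27 and 10 against 2 and 5, and 14 and 13 against 2 and 1. The feedback gene Nkd1 passed in none, and the secreted Wnt inhibitor Dkk1 had at most 8 counts in any library and was not tested.

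Whether the DOX effect differed between lines was tested as an interaction, the knockouts being set against the average of the 2 WT pLV2 lines. In the libraries labelled TRIM24-KO 3 of 35 members had a more positive DOX effect than WT pLV2, where 0.437% of all genes differed (0.354% higher and 0.083% lower): Dusp6 (0.64 ± 0.13), Mycn (0.50 ± 0.10) and Pim1 (0.50 ± 0.08; edgeR adjusted p = 0.047, 0.041 and 0.012). These 3 do not hold firmly. Only 1 was called with other size factors, with CT010467.1 left out or with repeats in the library sizes, and 0 were called against line 1 alone, without either line 1 library lacking DOX, without the second line 2 library lacking DOX, without the second TRIM24-KO library lacking DOX or without the first with DOX. Without the first line 2 library lacking DOX, the first DOX library of line 2 or either DOX library of line 1, 1 was called. For TRIM33-KO 0 of 35 members passed, where 0.575% of genes did (0.498% higher and 0.0774% lower) and 13 members had an unadjusted p under 0.05. Of these Socs3 had the smallest p (-0.35 ± 0.08, adjusted p = 0.082). DESeq2 called 1, and edgeR 7 with no filter on low counts, 4 against line 1 alone, 1 with repeats in the library sizes and 1 without either line 2 library lacking DOX or the first with DOX. Between the 2 WT pLV2 lines only Socs3 was called in this fit (-0.62 ± 0.10 in line 2 against line 1, edgeR adjusted p = 0.0094, with 0.238% of genes called, 0.183% higher and 0.0553% lower), a call that ended without the second line 1 library lacking DOX or the first with DOX. With no filter on low counts 4 members were called, and by DESeq2 2. For the libraries labelled DUXBL-KO 0 of 34 members and 0.0% of genes differed from WT, with 0 members at an unadjusted p under 0.05 and 0 by DESeq2.

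Without DOX, the libraries labelled TRIM24-KO stood apart from both WT pLV2 lines in ERK response genes. All 8 feedback inhibitors of ERK were higher, with a median log2 difference of 1.24, as were 6 of 9 ERK-induced transcription factors, and Mycn, Egr1 and Tcf7 were lower. In all, 20 of 35 members were higher and 7 lower (edgeR, adjusted p under 0.05), and with 1 library left out calls were lost only for Axin2, Ier3 and Lef1. Of all 18079 genes 43.4% passed, 20.9% higher and 22.5% lower. The median over the members was 0.41, and over all genes -0.02. Trim24 itself was not lowered in these libraries, so the differences belong to the libraries with that label.

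**Figure D3:**
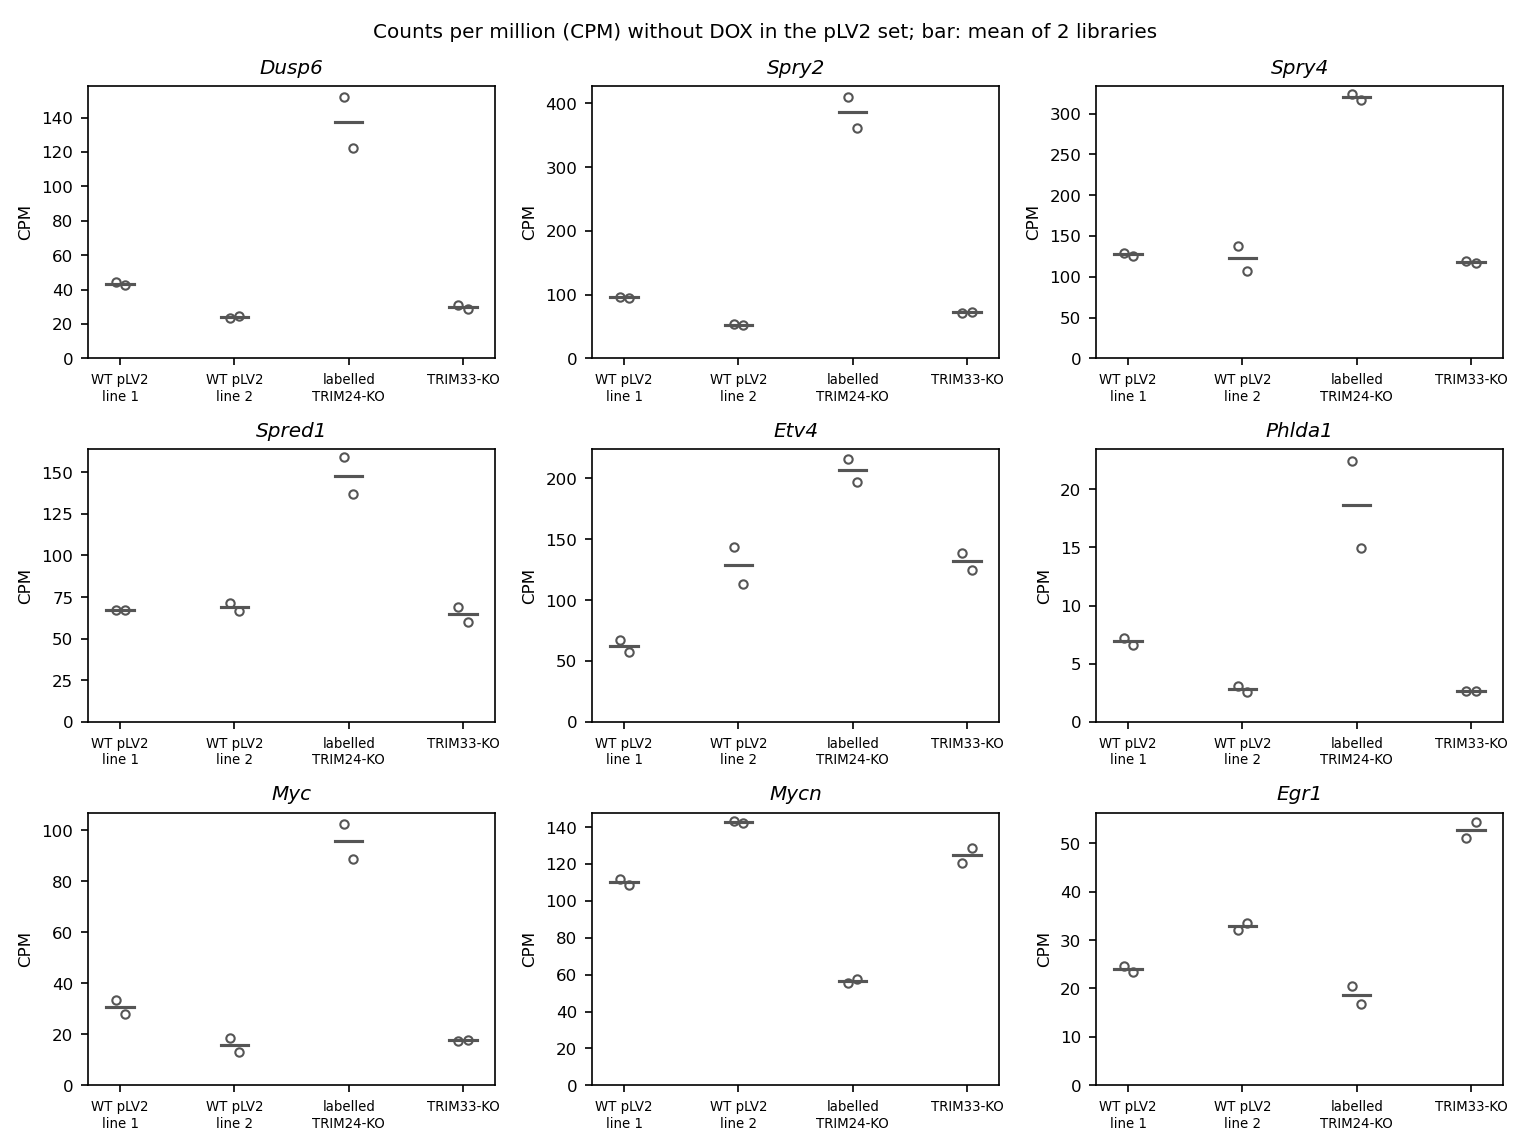
CPM without DOX (vertical axes from 0) of 9 ERK response genes in the 4 pLV2 lines (horizontal axis). Points are libraries and bars means of 2. The libraries labelled TRIM24-KO lie above all other lines for Dusp6, Spry2, Spry4, Spred1, Etv4, Phlda1 and Myc, and below them for Mycn and Egr1.

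Spry2 (chr14:105891947-105896819, minus strand) read 410.3 and 362 CPM in the libraries labelled TRIM24-KO, against 96.7 and 94.99 in line 1 and 54.1 and 52.0 in line 2, a 5.41-fold difference (2.44 ± 0.07, edgeR adjusted p = 2.4e-13). Dusp6 (chr10:99263231-99267489, plus strand) read 152 and 122 CPM against 44.3 and 42.4 and 23.2 and 24.4 (4.28-fold, 2.10 ± 0.09, adjusted p = 2.5e-11). Spry4 read 324 and 317 CPM against 129.5 and 126 and 138 and 108 (1.35 ± 0.08). For these 3 genes the lowest library labelled TRIM24-KO was above the highest WT pLV2 library. Spred1 read 159 and 137 CPM against 66.7 to 71.5 in the 4 WT libraries (1.12 ± 0.07). Dusp5 read 22.8 and 16.2 against 4.66 to 6.98 CPM (1.65 ± 0.16), Spry1 27.2 and 27.6 against 10.8 to 17.95 (0.88 ± 0.10) and Dusp4 18.5 and 15.7 against 9.21 to 10.8 (0.81 ± 0.11). Spred2 differed least, at 113 and 116 against 91.2 to 100.1 CPM (0.26 ± 0.05).

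Myc, which ERK induces and stabilises, read 103 and 88.8 CPM against 33.6 and 28.1 in line 1 and 18.8 and 13.2 in line 2 (4.29-fold, 2.10 ± 0.10, edgeR adjusted p = 1.1e-10). Mycn was the reverse, at 55.4 and 57.4 CPM against 112 and 109 and 144 and 142 (2.22-fold lower, -1.15 ± 0.07, adjusted p = 2.0e-09). Phlda1, a pleckstrin homology gene induced by growth factors, read 22.5 and 14.9 against 7.20 and 6.63 and 3.05 and 2.57 CPM (2.08 ± 0.16). Etv4 read 216 and 197 CPM against 67.2 and 57.4 and 144 and 114 (1.21 ± 0.09), and Etv5 306 and 320.0 against 213 to 281 (0.35 ± 0.07). Etv5 was 0.18 against line 1 alone (not called) and 0.52 against line 2 alone. Fosl1, a FOS relative linked to sustained ERK signalling, had 39 and 30 counts against 2 and 1 in line 1 and 7 and 6 in line 2 (edgeR adjusted p = 1.0e-06). Junb (1.37 ± 0.14), Jun (1.22 ± 0.19) and Ier3 (0.41 ± 0.13) were also higher, with Ier3 at 0.58 against line 1 alone and 0.24 (not called) against line 2 alone. Egr1 went the other way, at 20.4 and 16.8 CPM against 23.4 to 33.6 (-0.60 ± 0.11, adjusted p = 0.00040), and Fos, Ccnd1 and Ier2 did not pass.

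LIF pathway members were mixed in the libraries labelled TRIM24-KO. Socs2 read 103 and 82.9 CPM against 33.5 to 37.9 in the WT pLV2 libraries (1.37 ± 0.09), and Bcl3 (0.81 ± 0.11), Il6st (0.57 ± 0.08) and Pim3 (0.41 ± 0.09) were higher too. Lifr (-0.32 ± 0.06) and Stat3 (-0.46 ± 0.05) were lower, and Socs3, Pim1 and Lif did not pass. Wnt targets were lower where called: Tcf7 at 39.4 and 41.5 CPM against 64.1 to 97.3 (-0.90 ± 0.10, edgeR adjusted p = 2.5e-06), Axin2 at 15.3 and 17.9 against 20.2 to 23.2 (-0.36 ± 0.09) and Lef1 (-0.49 ± 0.18). Lef1 turned to 0.19 against line 2 alone. Stat3 was -0.10 against line 1 (not called) and -0.82 against line 2, and Pim3, at 132 and 124 CPM against 124 and 130.3 in line 1 and 72.6 and 73.1 in line 2, was 0.00 (not called) and 0.81, so that neither mean difference describes both lines. The 22-gene fibroblast list summed to 682 to 804 CPM in these libraries and to 1576 to 1913 in the WT pLV2 libraries. Fn1 was the largest part of that sum in every library, with 5180 to 37541 counts. Vim had 288 to 3563 counts and any other listed gene at most 414. The 8 defining genes of the list were near 0 in both (0.961 to 1.28 and 1.48 to 5.23 CPM). Primitive endoderm markers summed to 25.6 to 28.7 CPM against 5.64 to 8.09, with 5 of 6 tested higher. Of 7 tested trophectoderm markers 5 were higher (Gata3 2.31, Krt18 1.83 and Krt8 1.47 among them) and 1 lower (Tfap2c -1.04). Of 12 stem cell markers 4 were higher and 5 lower, with a median log2 difference of 0.01. The part of these markers in the results was not tested.

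The 2 WT pLV2 lines differed between themselves, so each was also taken alone. Against both, 17 members were called higher in the libraries labelled TRIM24-KO (all 8 feedback inhibitors, Etv4, Fosl1, Jun, Junb, Myc, Phlda1, Il6st, Socs2 and Bcl3), 5 lower (Egr1, Mycn, Lifr, Axin2 and Tcf7) and 0 in opposite directions. Called shares of all genes were 34.0% against line 1 and 48.1% against line 2. Without overlap, both libraries labelled TRIM24-KO lay above all 4 WT pLV2 libraries for 18 members, where 21.3% of genes did, and below them for 6, where 22.9% did.

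**Figure D4:**
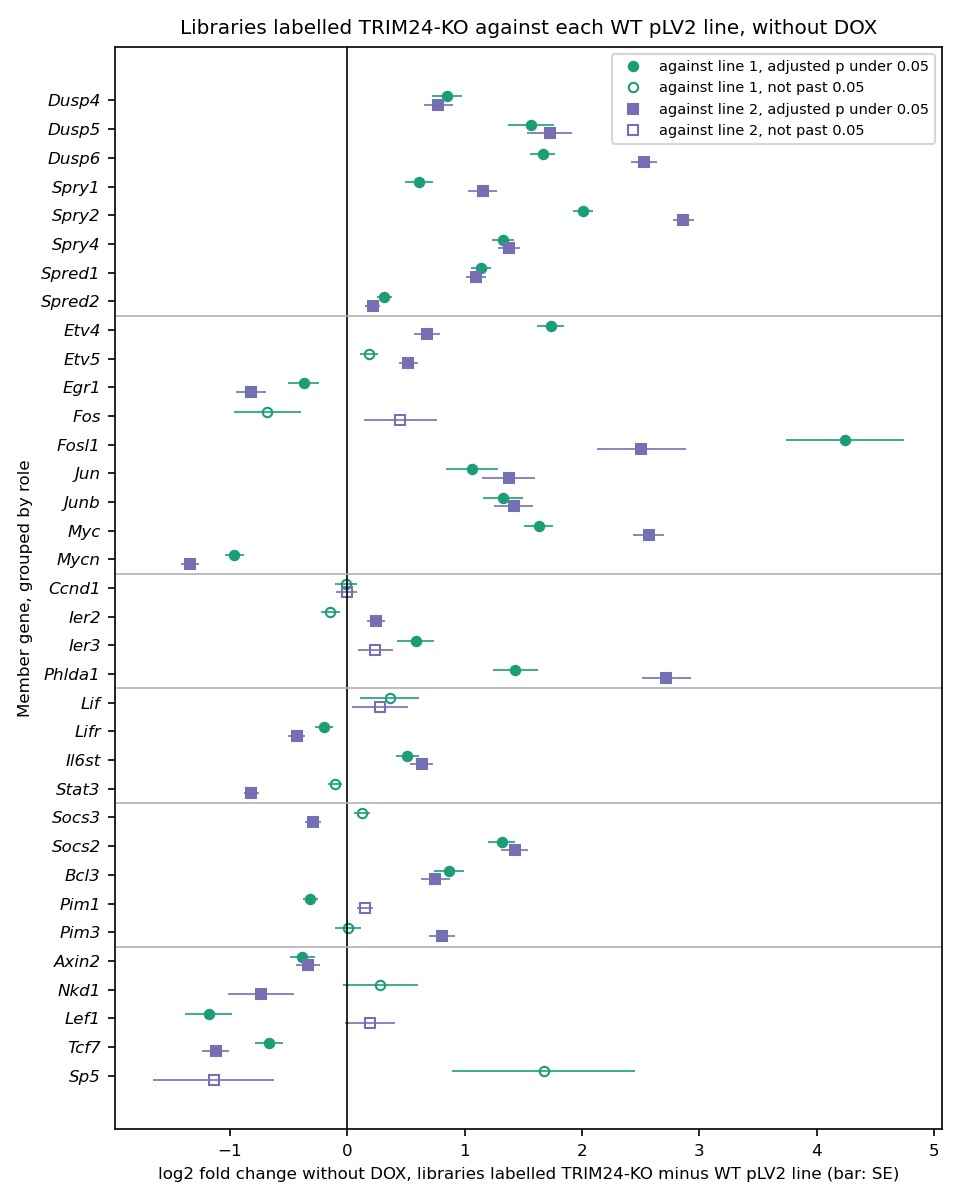
Log2 difference without DOX between the libraries labelled TRIM24-KO and each WT pLV2 line (horizontal axis; bars are SE) for 35 members (vertical axis, by role). Circles are against line 1 and squares against line 2, filled where the adjusted p is under 0.05. The 8 feedback inhibitors lie right of 0 against both lines, and Mycn, Egr1 and Tcf7 left of it.

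Between the WT lines, 9 of 35 members were higher and 11 lower in line 2 than in line 1, where 38.3% of all genes differed (18.9% higher and 19.3% lower). Stat3 was higher (133 and 131 CPM against 81.3 and 79.8, 0.71 ± 0.06, edgeR adjusted p = 2.1e-07) and so were Etv4 (1.05 ± 0.12), Tcf7, Mycn, Egr1 and Socs3. Lef1 (-1.38 ± 0.20), Phlda1 (-1.28 ± 0.23), Myc (-0.94 ± 0.14), Dusp6 (-0.87 ± 0.12), Spry2 (-0.85 ± 0.09) and Pim3 (-0.81 ± 0.11) were lower. Of 12 stem cell markers 7 were lower and 3 higher in line 2, of 13 tested fibroblast genes 8 were higher and 1 lower, and of 8 2-cell markers 3 were lower. The fibroblast list, of which Fn1 is the largest part, summed to 1824 to 1913 CPM in line 2 and 1576 to 1615 in line 1. Of the defining fibroblast genes 2 were tested, Col1a1 and Col1a2, and both were higher, with all 8 summing to 2.94 to 5.23 against 1.48 to 1.85 CPM. The part of these markers in the line difference was not tested.

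TRIM33-KO differed less without DOX. Against the mean of both WT lines 6 members were higher and 5 lower, where 23.9% of genes differed, 12.8% higher and 11.1% lower (6 and 3 members with repeats in the library sizes). These calls moved with the reference: 17 members were called against line 1 alone, where 40.9% of genes were, and 4 against line 2 alone, where 1.52% were. The count was 7 without the first line 1 library and 5 without the second TRIM33-KO library. Egr1 was the only member called higher against both, at 51.1 and 54.5 CPM against 24.7 and 23.4 and 32.1 and 33.6 (0.91 ± 0.10, edgeR adjusted p = 9.4e-06). Spry2, at 71.8 and 72.5 CPM, lay between the lines and was called lower than line 1 and higher than line 2. In the mean comparison Etv4, Stat3, Socs2, Socs3 and Etv5 were higher and Pim3, Phlda1, Dusp4, Myc and Pim1 lower, and Myc turned to 0.13 against line 2 alone. Of 13 tested fibroblast genes 6 were higher and 1 lower in TRIM33-KO than the mean of both lines, and of 12 stem cell markers 4 were lower and 2 higher. The fibroblast list, with Fn1 again its largest part, summed to 1938 to 1982 CPM in TRIM33-KO, above both lines. Col1a1 and Col1a2 were higher again, with the 8 defining genes at 5.17 to 5.33 CPM. The part of these markers was not tested. Both TRIM33-KO libraries lay above all 4 WT ones for 5 members (9.94% of genes) and below for 2 (10.5%). Between the libraries labelled DUXBL-KO and WT 0 of 34 members differed, where 0.0388% of 18060 genes did. Of the members 3 had an unadjusted p under 0.05, the smallest that of Il6st (124 and 104 CPM against 145 and 138, -0.31 ± 0.11, edgeR adjusted p = 0.48), DESeq2 called 0, 2 were called without a filter on low counts (Spry2 0.72 and Spry4 0.52), and 2 with the replicate number as a block (Etv4 0.41 and Spry4 0.52).

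Other genes of the 3 pathways, from fixed lists without the members, were in total called lower more often than higher with DOX in each pLV2 line. The all-gene shares, higher and lower, were 10.0% and 6.25% in line 1, 12.7% and 14.0% in line 2, 16.5% and 20.1% in TRIM33-KO and 11.5% and 4.94% under the TRIM24-KO label. Of 43 tested FGF-ERK genes, 1 rose and 5 fell in line 1, 3 and 14 in line 2, 4 and 16 in TRIM33-KO and 4 and 5 in the libraries labelled TRIM24-KO (11.6%, 32.6%, 37.2% and 11.6% lower). Grb2, the adaptor between receptors and RAS, rose in all 4 (0.37 in line 1, 0.61 in line 2, 0.96 in TRIM33-KO and 1.14 in the libraries labelled TRIM24-KO), and its DOX effect was larger under the TRIM24-KO label and in TRIM33-KO than in WT pLV2 (interactions 0.65 and 0.47, edgeR adjusted p = 0.0014 and 0.011). Of 18 LIF-JAK-STAT genes, 1 rose and 1 fell in line 1, 1 and 6 in line 2, 3 and 9 in TRIM33-KO and 2 and 5 in the libraries labelled TRIM24-KO (5.6%, 33.3%, 50% and 27.8% lower). Il6ra, the interleukin 6 receptor that also pairs with gp130, rose from 2.40 and 3.09 to 26.5 and 28.4 CPM in line 1 and from 4.32 and 3.07 to 68.1 and 59.3 in TRIM33-KO (3.31 and 4.11). It rose in line 2 (3.19), in the libraries labelled TRIM24-KO (4.13) and in those labelled DUXBL-KO (2.99, edgeR adjusted p = 0.0038). The naive pluripotency factor Klf4, a LIF target, fell in line 2 (-0.51), in TRIM33-KO (-0.68) and under the TRIM24-KO label (-0.70).

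Of 45 Wnt genes tested in the pLV2 set, 2 rose and 5 fell in line 1, 3 and 11 in line 2, 7 and 15 in TRIM33-KO and 2 and 3 in the libraries labelled TRIM24-KO (11.1%, 24.4%, 33.3% and 6.7% lower, the last near the all-gene share). The Wnt receptor gene Fzd4 rose in all 4 (1.61 in line 1, 1.70 in line 2, 1.63 in TRIM33-KO and 1.80 in the libraries labelled TRIM24-KO), from 4.46 and 5.53 to 14.1 and 16.4 CPM in line 1, while Fzd5 fell in the same order by 0.34, 0.45, 0.72 and 0.48. Without DOX the libraries labelled TRIM24-KO had 20 FGF-ERK genes higher and 8 lower than WT pLV2, 8 and 2 LIF genes and 13 and 10 Wnt genes. These are 46.5% and 18.6%, 44.4% and 11.1%, and 28.9% and 22.2% of those tested, beside 20.9% and 22.5% of all genes, which the Wnt shares lie near. FGF receptor gene Fgfr3 read 36.3 and 31.7 CPM there against 2.06 to 3.86 in WT pLV2 (3.60 ± 0.15), and Klf5 (2.06 ± 0.06), Gbx2 (2.99 ± 0.10) and the ERK phosphatase gene Dusp9 (1.59 ± 0.07) were higher. Klf4 (-0.66 ± 0.07) and the secreted Wnt inhibitors Sfrp1 (-1.55 ± 0.10) and Dkk3 (-2.56 ± 0.25) were lower.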

How the data were processed

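RNA-seq of 24 libraries was deposited as 1 table each of whole-number counts per gene and per repeat subfamily, per the file headers. Per the labels' protocols, libraries were strand-specific, rRNA-depleted and paired-end. Per the submitters' processing notes, bcl2fastq 2.20.0, cutadapt 1.18 and STAR 2.7.6a and the mm10 build were used, with no roles named. The counting program, its strand setting and its handling of multiple matches are not given in the sources used here. Gene IDs were matched to GENCODE M21 (GRCm38): 54349 with and 792 without version, 346 unmatched.

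Groups follow the titles. Each set was fitted apart with edgeR 4.0.16 (R 4.3.3; TMM factors from gene counts, filterByExpr, glmQLFit and glmQLFTest, 2-sided), 1 mean per group, all groups of a set sharing the spread, and p-values adjusted over all genes tested (Benjamini-Hochberg, threshold 0.05) in each of 14 contrasts. This left 18060 genes in the plain and 18079 in the pLV2 set. CPM were computed here from effective library sizes, and folds are fitted values. Replicates differed by more than sampling noise in each group. On simulated data the fit recovered 49% of genes changed by a log2 of 1 and 96% of those changed by 2 for DOX in WT (18060 genes), and 95% and 99% for DOX in TRIM33-KO (18079 genes). Recovery is not given for smaller changes, which most member changes with DOX were. Alternatives were DESeq2 1.42.0, other size factors, no filter, repeats in the library sizes, CT010467.1 left out, only the compared groups, each WT line alone, a replicate block and leaving out each library.

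Members and lists were chosen with earlier results of these data known. All members may be named. Values per library are given for those called in at least 3 DOX comparisons or 2 without DOX and for the smallest p of a comparison. Those of Dusp5, Spry4, Ier3 and Fosl1 were added after their values were seen. Pathway genes are named for the smallest p among those called with a mean of at least 50 counts, at most 4 per list and comparison.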

Additional observations from a re-analysis of the deposited data

Results flagged for a closer look

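The DOX effects of 4 members differed between lines by the interaction test in the main fit, but not all of these calls were firm. The Dusp6 call was lost in 16 of 21 alternatives, that of Mycn in 15 of 21 and that of Pim1 in 7 of 21. The Socs3 call was lost in 2 of 15. The fall of Dusp6 with DOX in line 2 was itself a call lost in 8 of 11. Dusp6 had a DOX effect 0.64 higher on the log2 scale in the libraries labelled TRIM24-KO than in the mean of the WT pLV2 lines, Mycn one 0.50 higher and Pim1 one 0.50 higher. Pim1 rose with DOX in the libraries labelled TRIM24-KO and fell in WT pLV2 line 2, and Dusp6 and Mycn fell in both WT pLV2 lines and passed in neither direction in the libraries labelled TRIM24-KO. Socs3 had a DOX effect of -0.62 in WT pLV2 line 2 against line 1, with levels of 147 and 145 falling to 99.1 and 106 CPM in line 2 and levels of 116 and 104 against 119 and 118 in line 1. The summed 2-cell markers with DOX also differed between those lines (2810 to 3920 CPM in line 2, 954 to 1182 in line 1), and their part in the result was not tested.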

How the results depend on the processing

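Of 1747 refits of 142 called member results, 1516 kept direction and call, 229 lost the call (154 of them with 1 library left out) and 2 reversed against WT pLV2 line 2 alone: Lef1 in the libraries labelled TRIM24-KO (0.19) and Myc in TRIM33-KO (0.13). Other counts moved as follows, and the cause was not tested. With no filter on low counts the members called became 3 for DOX in the libraries labelled DUXBL-KO, 2 for DUXBL-KO against WT, and 5, 7 and 4 for the TRIM24-KO, TRIM33-KO and line 2 interactions. With only the compared groups fitted, 14 were called for DOX in line 2 and 1 for the TRIM24-KO interaction. That interaction gave 1 with other size factors, with CT010467.1 left out and with repeats in the library sizes, and 0 against line 1 alone. For the TRIM33-KO interaction 1 was called with repeats in the library sizes, 1 with DESeq2 and 4 against line 1 alone, and for the line 2 interaction 2 with DESeq2. TRIM33-KO against WT pLV2 gave 17 against line 1 alone and 4 against line 2 alone. Leaving out 1 library gave 6 to 11 calls for DOX in line 1, 14 to 22 in line 2, 7 to 14 in the libraries labelled TRIM24-KO, 5 to 11 for TRIM33-KO against WT pLV2, and 0 to 3, 0 to 1 and 0 to 1 for the TRIM24-KO, TRIM33-KO and line 2 interactions.

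Each comparison has 2 pairs by replicate number, and the labels used here do not say what a number marks. Differences between replicates 1 and 2 correlated at 0.332 to 0.768 between groups of the plain set and at -0.175 to 0.386 in the pLV2 set. With a replicate block 3 members were called for DOX in the libraries labelled DUXBL-KO and 2 for DUXBL-KO against WT, against 0 each without it, and the other counts of members stayed within 1.5 times.

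Dkk1, Sp5, Fosl1 and Fos are limited by counts, with Dkk1 and, in the plain set, Fosl1 below the filter. On simulated data log2 changes of 1 were recovered less often for DOX in WT than for DOX in TRIM33-KO, and smaller changes were not covered. The 0 calls in the plain set therefore do not show that these members did not respond.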
